A study of Homo sapiens with 4 samples.

Results

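The genes described here encode the subunits, activators, inhibitor and assembly chaperones of the proteasome. Members were chosen by symbol and by their summed counts: they were the rows of the deposited count table whose symbol starts with PSM, continues with a letter from A to G and ends in a number, and whose counts summed to at least 20 over the 4 libraries. Of 42169 gene rows, 48 had such a symbol and 44 reached the count. They were grouped as alpha subunits (7 PSMA genes), beta subunits (8 PSMB genes), ATPases (6 PSMC genes), non-ATPases (14 PSMD genes), activators (4 PSME genes) and others (PSMF1 and 4 PSMG genes). RNA came from Huh7, a human hepatoma cell line. One group was control clone #1, with the genotype label WT, and the other was clone #18, a Brf1/TTP double knockout (DKO). Each genotype was therefore represented by a single clone, and genotype and clone cannot be told apart. In both clones 3 h of DMSO preceded 10 min of actinomycin D, an inhibitor of transcription, at 5 µg/ml, so every library carries that treatment. Each clone gave 2 libraries of total RNA. Whether these came from separate cultures is not in the labels, so the spread behind the p-values is that of repeat libraries and may be technical.

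The proteasome is the protease that degrades most ubiquitin-tagged proteins in the cytosol and nucleus. Its barrel, the 20S core, is built of outer rings of alpha subunits, which gate the entrance, and inner rings of beta subunits, of which PSMB5, PSMB6 and PSMB7 carry the active sites. The 19S cap adds a ring of ATPases that unfold substrates and non-ATPase subunits that bind ubiquitin chains and remove them. Most subunit genes are transcribed in every cell, and the factor NFE2L1 raises them when proteasome activity falls. Interferon induces the alternative active-site subunits PSMB8, PSMB9 and PSMB10, which form the immunoproteasome. TTP and BRF1, here the products of ZFP36 and ZFP36L1, bind UAUUUAU and related AU-rich elements of mRNAs and speed their decay.

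Gene counts ran from 9685798 to 16430228 per library, and the 44 members took between 0.702% and 0.812% of them. Levels are CPM, counts divided by a library size that TMM factors scale so that the bulk of genes aligns between libraries. On that scale 3 counts corresponded to between 0.186 and 0.302 CPM. The 10 hepatoma markers, ALB, AFP and APOB among them, were all detected in every library, with summed levels from 29555 to 31826 CPM. Of 7 leukocyte markers, LYZ gave nearly all of the summed 77.5 to 129 CPM, 2 to 4 markers were at 0 in a library, and the 4 endothelial markers summed to at most 0.0815 CPM. Of 5 fibroblast markers, 3 had at least 10 counts in every library, and the sum of 79.1 to 130.2 CPM was mostly COL1A2 (65.5 to 112 CPM). The targeted mRNAs were not lower in DKO: ZFP36 had 29.3 and 23.8 CPM in control and 37.1 and 36.8 in DKO, and ZFP36L1 had 132 and 111 against 146 and 120. Since a mutation that stops a protein need not lower its mRNA, these levels do not check the genotype. With spike-in totals as library sizes, the median gene shifted by -0.68 on the log2 scale, so directions are relative to the bulk of genes. The spike-in share of gene and spike-in counts was 1.47% for control replicate 1 but 0.946% for replicate 2. For DKO, replicate 1 had 1.62% and replicate 2 had 2.10%. Both DKO shares were higher, but the share also varied between replicates, and values on the spike-in scale carry that spread.

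Proteasome transcripts as a group were close to the bulk of genes in DKO. Of 44 members, 2 rose, none fell and 42 did not pass. In all, 5.37% of the 13359 genes tested passed, 2.24% of them upwards and 3.14% downwards, and the members' share of 4.55% was near that background. The 2 were PSMA1, an alpha subunit of the core, and PSMG2, a chaperone that assembles the alpha ring. The test was edgeR's quasi-likelihood test, and a gene is said to rise or fall at a Benjamini-Hochberg adjusted p under 0.05 over all genes tested.

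The log2 fold changes of the members, DKO over control, ran from -0.54 for PSMD4 to 0.97 for PSMA2. Their median was 0.04, against 0.0015 for all genes tested, with 24 positive and 20 negative. The number positive was 3 with spike-in totals, 16 without DKO replicate 2 and 30 without DKO replicate 1. Values within 0.5 log2 units of 0 made up 39 of the 44 (88.6%), where 76.0% of all genes tested were that close. Of the 10873 genes at or above the level of the lowest member, 81.0% were. The SD over the members was 0.32, against 0.56 over all genes tested and 0.45 over these 10873. The lowest member level was the mean of 4.01 CPM of PSMB10, and the part of expression level in these spreads was not tested. For 40 of the 44 members the 95% interval of the fold change lay within 1 log2 unit of 0 on both sides. At an unadjusted p under 0.05, edgeR's test gave 4 members higher and 2 lower, 13.6% of members against 20.2% of all genes. Control and DKO values were fully separated for 18 members (40.9%, against 49.8% of all genes), with DKO above control in 12 (25.0% of all genes) and below in 6 (24.8%). With the median of each class between -0.10 and 0.22, alpha subunits had the highest, at 0.22, and beta subunits the lowest, at -0.10. This order depended on single libraries. Without control replicate 2 the class of others had the highest median (0.0996), just above alpha subunits (0.0980). Activators then had the lowest (-0.04), with beta subunits at 0.05. Without DKO replicate 1 alpha subunits stayed highest (0.26), but activators (0.03) lay below beta subunits (0.05). In these bulk libraries a change in the number of cells and a change in RNA per cell cannot be told apart.

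**Figure D1:**
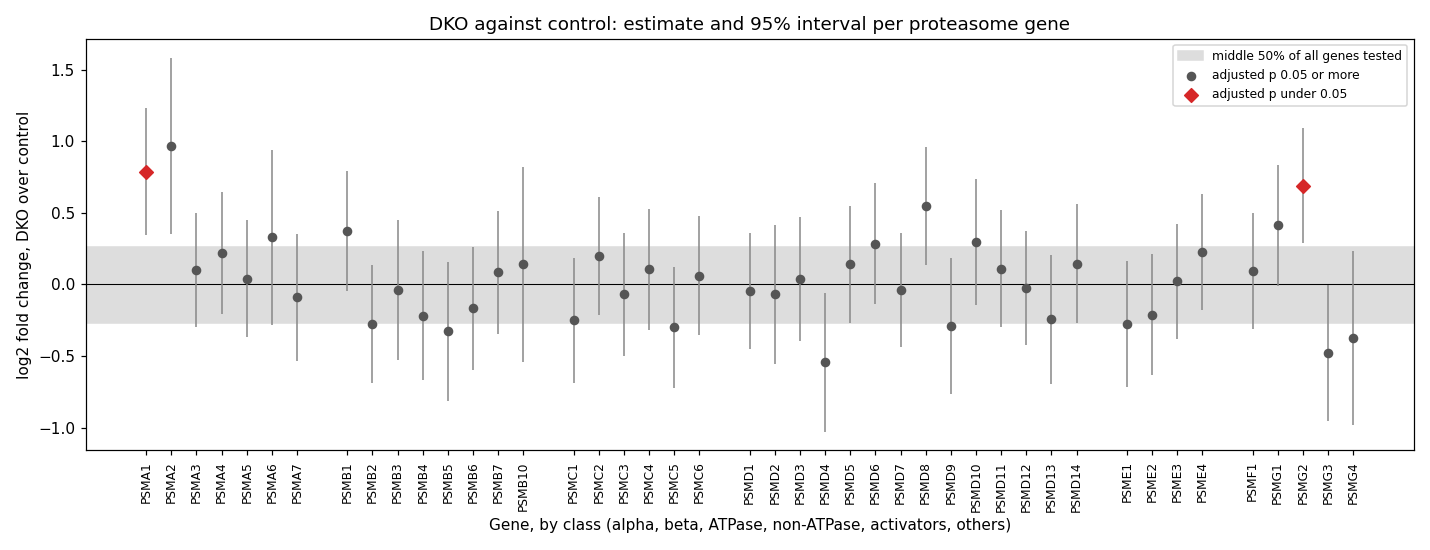
Log2 fold change, DKO over control, of each of the 44 proteasome genes by class, with its 95% interval from edgeR; the grey band holds the middle 50% of all genes tested. PSMA1 at 0.79 and PSMG2 at 0.69 are the 2 genes with an adjusted p under 0.05, and 39 of the 44 estimates lie within 0.5 of 0.

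Of 7 alpha subunits, 1 rose, none fell and 6 did not pass, and 6 estimates were positive. The class median of 0.22 was 0.10 when the second control library or the second DKO library was left out, and the estimates furthest from 0 were those of PSMA1 and PSMA2, whose coding bases are shared with other annotated genes. PSMA1 (chromosome 11, 14504874 to 14643635, minus strand, hg38, GENCODE 29) had 52.3 and 37.8 CPM in the control libraries and 79.7 and 75.8 CPM in the DKO libraries. The lowest DKO value exceeded the highest control value. The estimate was 0.79 on the log2 scale (SE 0.21, 95% interval 0.35 to 1.23, edgeR adjusted p = 0.0383). The 50 tested genes nearest to PSMA1 along its chromosome had a median of 0.18, and their part in its estimate was not tested.

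The call for PSMA1 depended on the libraries, where the clone left with 1 library was assumed to vary like the other. It passed without control replicate 1, at 1.04, and did not pass without control replicate 2 (0.56, edgeR adjusted p = 0.168). Leaving out the first or the second DKO library also ended the call (0.76 and 0.82, edgeR adjusted p = 0.326 and 0.25). The call depended on the scaling as well. With spike-in totals the value was 0.16 and did not pass. With unscaled gene totals it narrowly missed the threshold (0.77, edgeR adjusted p = 0.0528), and with median-ratio size factors it passed (edgeR adjusted p = 0.0433).

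PSMA2 (chromosome 7, 42916857 to 42932223, minus strand) had the largest estimate of all members and did not pass. Its levels were 27.4 and 12.6 CPM in control and 43.2 and 34.8 CPM in DKO, so that the control libraries themselves differed by more than 2-fold (-1.12 on the log2 scale, replicate 2 over replicate 1). The log2 fold change was 0.97 (SE 0.29, 95% interval 0.35 to 1.59, edgeR adjusted p = 0.0657). It was 1.62 without control replicate 1, where it passed (edgeR adjusted p = 7.82e-08), and 0.50 without control replicate 2, where it did not (0.271). It also passed by limma-voom (limma adjusted p = 0.0457) and by edgeR without a filter on low counts (edgeR adjusted p = 0.00151).

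The other alpha subunits showed smaller differences. PSMA6, like PSMA2 a ring component, had 9.66 and 10.6 CPM in control and 8.78 and 16.4 CPM in DKO, which overlapped (0.33, SE 0.29). PSMA4 (0.22), PSMA3 (0.10) and PSMA5 (0.04) lay closer to 0. PSMA7, the highest alpha subunit per transcript length, had 397 and 480.5 CPM in control and 370 and 456 CPM in DKO (-0.09, SE 0.21). The DKO libraries of PSMA3 and PSMA4 lay above the control libraries as well, by margins of 114 against 107 CPM and 273.8 against 272.9 CPM at the nearest pair.

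PSMA1, PSMA2 and PSMA6 share annotation with other genes. In GENCODE 29, 88.6% of the coding bases of PSMA1 also belong to exons of AC018523.2 on the same strand, 100% of those of PSMA2 to AC010132.3, and 70.4% of those of PSMA6 to AL121594.1. AC018523.2 held 0 to 2 counts per library and AC010132.3 held 0. The sources used here do not give how reads in shared exons were counted, so the counts of these genes may come from part of the transcript only. PSMB10 (58.3%) and PSMD9 (67.5%) share coding bases in the same way. Among the 39 members with under 50% shared, 1 rose, PSMG2, and the median was 0.02; among these 5, 1 rose and the median was 0.33.

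Levels within the alpha ring, whose subunits enter the particle in equal numbers, were far apart. Per kilobase of the longest principal transcript in GENCODE, PSMA7 averaged 428 CPM, PSMA3 114, PSMA4 59.2, PSMA1 40.8, PSMA5 34.1, PSMA2 19.8 and PSMA6 11.04. The highest alpha subunit exceeded the lowest 38.7-fold on that mean, and between 28.7-fold and 56.8-fold within single libraries. Among the 4 alpha subunits with no shared coding bases it was 12.5-fold, whereas the 7 constitutive beta subunits spanned 2.83-fold. The length bears on the smaller set: in CPM without length, these 4 genes spanned 3.84-fold, all 7 alpha subunits 37.5-fold and the beta subunits 1.82-fold. The longest principal transcripts of PSMA4 and PSMA5 have 4411 and 3729 bases, against 996 for PSMA7. PSMA4 also has a principal transcript of 1094 bases, which would give it a higher level per kilobase. With the shortest principal transcripts the spans stayed at 38.7-fold for the alpha ring and 12.5-fold for the 4 genes. Which transcripts the cells make was not tested. PSMA2 and PSMA6 also have 3 and 4 annotated pseudogenes with their symbol. The part of shared exons and pseudogene copies in these levels was not tested.

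**Figure D2:**
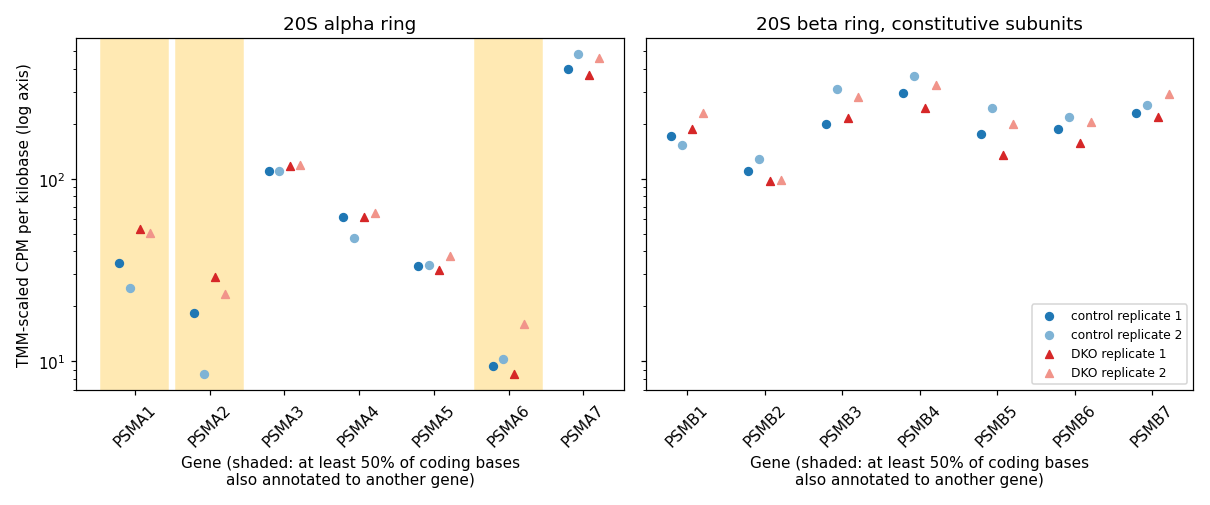
Level per kilobase of the longest principal transcript (TMM-scaled CPM, log axis) of the alpha and the constitutive beta subunits in each of the 4 libraries. Shading marks genes with at least 50% of coding bases also annotated to another gene. PSMA2 and PSMA6, both shaded, are the lowest on average at 19.8 and 11.04, while the beta subunits stay between 109 and 307 on average.

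None of the 8 beta subunits passed, and 3 were positive and 5 negative. Among the constitutive active-site subunits, PSMB5, which cuts after hydrophobic residues, had 228 and 316 CPM in control and 175 and 258 CPM in DKO. The clones overlapped, and the log2 fold change of -0.33 (SE 0.23, 95% interval -0.81 to 0.16, edgeR adjusted p = 0.453) did not pass. PSMB6, which cuts after acidic residues, had 159 and 185 CPM against 133 and 174 CPM (-0.17, SE 0.20). PSMB7, which cuts after basic residues, had 224 and 249 CPM against 215 and 286 CPM (0.08, SE 0.20). The 3 active-site genes thus lay on both sides of 0, and none passed.

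PSMB1, a structural subunit of the beta ring, had the highest estimate of its class. Its levels were 159 and 141 CPM in control and 174 and 214 CPM in DKO, with no overlap (0.37, SE 0.20, 95% interval -0.04 to 0.79, edgeR adjusted p = 0.303). PSMB2, another structural subunit, had 297 and 347 CPM in control and 264 and 266 CPM in DKO, again separated but in the other direction (-0.28, SE 0.19), and did not pass. PSMB4 (-0.22) and PSMB3 (-0.04) had overlapping libraries. The 50 tested genes nearest to PSMB5, PSMB4 and PSMB2 along the chromosome had medians of -0.38, -0.21 and -0.21. Not every member had the sign of its neighbours. For PSMD8 (0.55) and PSMG4 (-0.38) the medians were -0.07 and 0.14. The part of neighbouring genes in the estimates was not tested.

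Immunoproteasome transcripts were scarce in both clones. PSMB10 was the member nearest to the count threshold from above, with a sum of 197 counts, and its levels were 3.02 and 4.56 CPM in control and 4.44 and 4.02 CPM in DKO (0.14, SE 0.32, edgeR adjusted p = 0.859). Just below the threshold was PSMB8, with 4 and 1 counts in control and 3 and 7 in DKO, a sum of 15. The thymus subunit PSMB11 had 2 counts in all, and PSMB9 and the testis subunit PSMA8 had 0 in every library, which allows up to 3 counts, or 0.186 to 0.302 CPM. PSMB8, PSMB9 and PSMB10 together gave 0.557% and 0.616% of the counts of the 6 active-site genes in control (95% Wilson intervals 0.399 to 0.777% and 0.475 to 0.797%) and 0.896% and 0.617% in DKO (0.678 to 1.18% and 0.490 to 0.776%). The intervals cover counting error only. These shares take no account of transcript length. PSMB10 also shares 58.3% of its coding bases with another annotated gene, so its counts may come from part of the transcript only. DKO replicate 1 was the highest, and the intervals of all 4 libraries shared a common range.

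**Figure D3:**
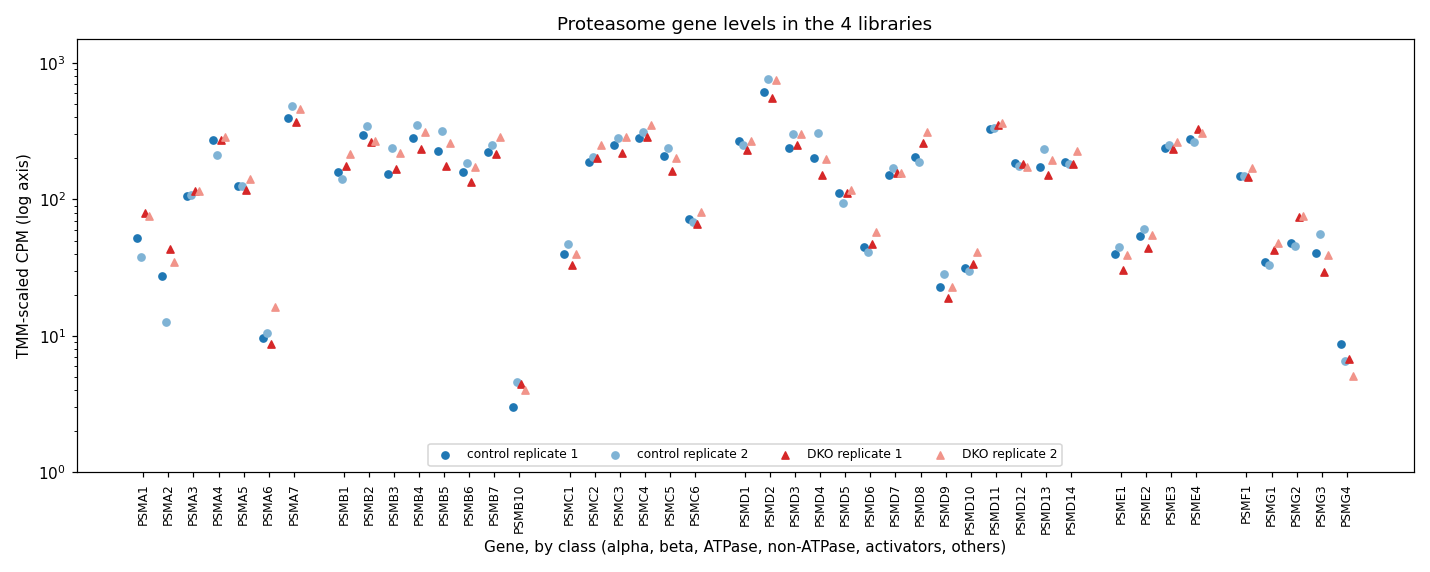
TMM-scaled CPM (log axis) of each of the 44 proteasome genes in control replicates 1 and 2 (circles) and DKO replicates 1 and 2 (triangles), by class. PSMD2 has the highest CPM, up to 763, PSMB10 the lowest at 3.02 to 4.56 CPM, and the symbols of the clones separate clearly for PSMA1 and PSMG2.

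The ATPase ring stayed near control, with 3 of 6 genes positive, 3 negative and none passing. PSMC2 had the highest value, at 189 and 204 CPM in control and 202 and 249 CPM in DKO (0.20, SE 0.20, 95% interval -0.22 to 0.61, edgeR adjusted p = 0.619). The lowest was that of PSMC5, at 209 and 238 CPM against 161 and 202.5 CPM (-0.30, SE 0.20, 95% interval -0.72 to 0.12, edgeR adjusted p = 0.429), with both DKO libraries below both control libraries. PSMC1 was separated in the same direction, with 39.9 and 47.0 CPM in control and 33.1 and 39.8 CPM in DKO (-0.25, SE 0.20). Its gap was very small, with 39.94 CPM in control against 39.84 CPM in DKO at the nearest pair. PSMC4 (0.11), PSMC6 (0.06) and PSMC3 (-0.07) had overlapping libraries. PSMC1 was the lowest of the ring per kilobase, at 8.99 CPM against 194 for PSMC4, a 21.6-fold span that was 7.73-fold in CPM without length. It has 13 annotated pseudogenes with its symbol, and 75.8% of its exon bases overlap exons of other genes when both strands are counted.

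Of 14 non-ATPase genes, none passed, 7 were positive and 7 negative, and 2 stood apart from the rest of the class. PSMD8, a lid subunit, had 204 and 186 CPM in control and 259 and 310 CPM in DKO, with no overlap (0.55, SE 0.19, 95% interval 0.13 to 0.96, edgeR adjusted p = 0.121). PSMD4, a receptor for ubiquitin chains, had 200 and 307 CPM in control and 152 and 196 CPM in DKO, again with no overlap (-0.54, SE 0.23, 95% interval -1.03 to -0.06, edgeR adjusted p = 0.190). The gap for PSMD4 between the nearest libraries was small, 196 against 200 CPM. Leaving out control replicate 1 made it pass (-0.82, edgeR adjusted p = 0.0058), whereas leaving out control replicate 2 gave -0.21. Its 50 nearest tested neighbours had a median of -0.22. PSMD4 lies close to PSMB4 on chromosome 1, so the neighbours of these genes overlap, and their part was not tested.

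The rest of the cap differed less. In the base, PSMD2, the member with the highest CPM though not the highest per length, had 607 and 763 CPM in control and 557 and 749 CPM in DKO (-0.07, SE 0.23), and its partner PSMD1 had 266 and 251 CPM against 232 and 269 CPM (-0.05, SE 0.19). In the lid, the deubiquitinase PSMD14 had 189 and 181 CPM against 182 and 227 CPM (0.14, SE 0.20). PSMD6 (0.28) and PSMD11 (0.11) had both DKO libraries above control, and PSMD3 (0.04), PSMD12 (-0.02), PSMD7 (-0.04) and PSMD13 (-0.24) overlapped. Among the chaperones that assemble the base, PSMD10, also known as gankyrin, had 31.2 and 29.6 CPM against 33.5 and 41.1 CPM (0.30, SE 0.21), PSMD5 was at 0.14 and PSMD9 at -0.29.

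The activators, which open the core in place of the 19S cap, did not pass either. PSME4, the nuclear activator PA200, had 278 and 265 CPM in control and 328 and 307 CPM in DKO (0.23, SE 0.19, 95% interval -0.18 to 0.63, edgeR adjusted p = 0.550). PSME3, the nuclear PA28 gamma, had 239 and 251 CPM against 233 and 264 CPM (0.02, SE 0.19). PSME1 and PSME2, the interferon-inducible PA28 alpha and beta, had lower estimates. PSME1 was at 39.7 and 44.6 CPM in control and 30.5 and 38.9 CPM in DKO (-0.28, SE 0.21, 95% interval -0.72 to 0.16, edgeR adjusted p = 0.487), and PSME2 at -0.21. Both lie on chromosome 14 (24136158 to 24138967 and 24143362 to 24147570), and the 50 tested genes nearest to each had medians of -0.39 and -0.37, which was not tested against the pair. The inhibitor gene PSMF1 had 147 and 149 CPM against 146 and 171 CPM (0.10, SE 0.19).

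Of the 4 core assembly chaperones, PSMG2 rose, none fell and 3 did not pass. PSMG1 and PSMG2 act as a pair that joins alpha subunits into a ring, and PSMG3 and PSMG4 form another pair. PSMG2 (chromosome 18, 12658043 to 12725740, plus strand) had 48.2 and 45.3 CPM in control and 74.7 and 76.0 CPM in DKO. The libraries of each clone lay close together and far from those of the other. PSMG2 rose by 0.69 log2 units (SE 0.19, 95% interval 0.29 to 1.09, edgeR adjusted p = 0.0466), and its neighbours had a median of -0.01. Leaving out control replicate 2 ended the call (edgeR adjusted p = 0.0978), as did leaving out either DKO library (edgeR adjusted p = 0.396 and 0.432), though its value stayed between 0.64 and 0.73 in the 4 fits without 1 library. With spike-in totals it was 0.02. With median-ratio size factors or unscaled gene totals it narrowly missed the threshold (edgeR adjusted p = 0.0524 and 0.0564).

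PSMG1, the partner of PSMG2, had 34.5 and 33.3 CPM in control and 42.4 and 47.8 CPM in DKO, without overlap (0.41, SE 0.20, 95% interval -0.01 to 0.83, edgeR adjusted p = 0.256). PSMG3 had the opposite sign, at 40.2 and 55.9 CPM against 29.5 and 39.2 CPM (-0.48, SE 0.22, 95% interval -0.96 to -0.0049, edgeR adjusted p = 0.243). In the fit without control replicate 1 it did pass (-0.70, edgeR adjusted p = 0.0171), while leaving out the second control library or the first DKO library gave -0.23 and -0.29 (edgeR adjusted p = 0.722 and 0.913). Its antisense gene PSMG3-AS1 held 94 and 162 counts in control and 57 and 91 in DKO. When both strands are counted, 3.06% of the exon bases of PSMG3 overlap exons of other genes, against 16.7% for PSMG2. PSMA3 has an antisense gene as well, PSMA3-AS1, with 364 and 303 counts in control and 346 and 421 in DKO. The strand setting of the counting is unknown here, and the part of antisense reads was not tested. PSMG4, at 8.75 and 6.52 CPM against 6.75 and 5.07 CPM, was at -0.38 (SE 0.29).

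**Figure D4:**
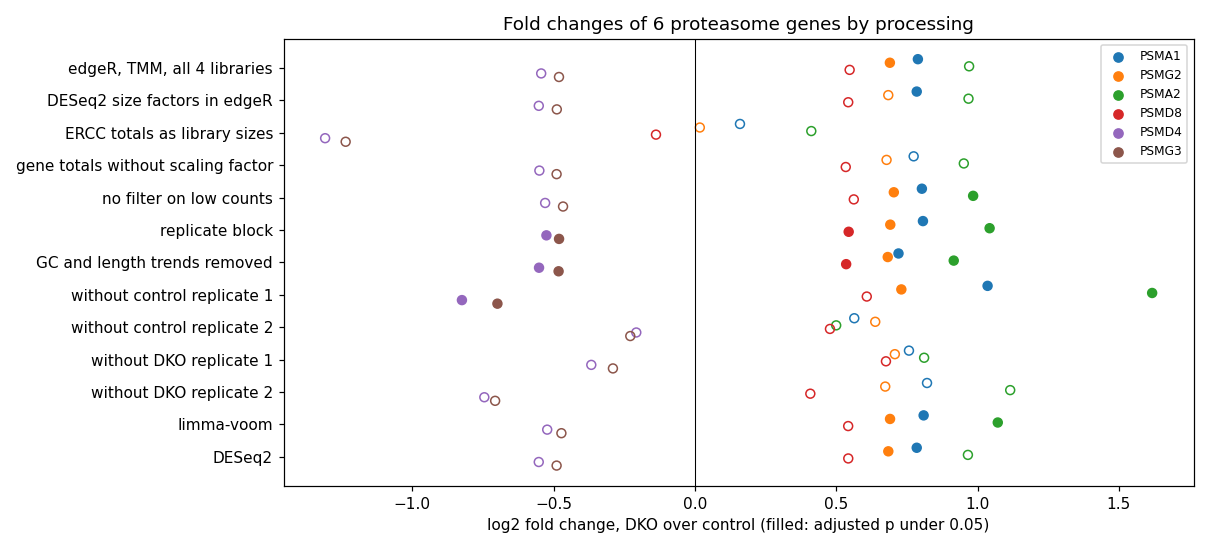
Log2 fold change, DKO over control, of PSMA1, PSMG2, PSMA2, PSMD8, PSMD4 and PSMG3 under each way of processing; filled symbols have an adjusted p under 0.05. PSMG2 stays between 0.64 and 0.73 in the fits without 1 library, PSMA2 ranges from 0.50 to 1.62 there, and spike-in totals move all 6 to the left.

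Differences between the 2 control libraries went with the GC content of the transcripts. Across the 44 members, the log2 ratio of control replicate 2 over control replicate 1 correlated with GC at r = 0.52 (Spearman 0.59), and over 13132 genes at r = 0.64. For the DKO libraries the same ratio gave r = 0.13 (Spearman 0.30) across the members and r = 0.48 over all genes. The DKO over control fold change correlated with GC at r = -0.36 (Spearman -0.44) across the members and at r = -0.20 over all genes. These are correlations across genes, which share the same 4 libraries, and the part of GC in the fold changes was not tested beyond the fit that follows. Of the 22 members with GC below 48.0%, 17 were positive, with a median of 0.14, and of the other 22, 7 were positive, with a median of -0.13. With trends over GC and length removed, 6 members passed: PSMA1, PSMA2, PSMD8 and PSMG2 higher, PSMD4 and PSMG3 lower. That is 13.6% of members where 16.2% of all genes passed, and PSMA1 was then at 0.72 and PSMG2 at 0.68.

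**Figure D5:**
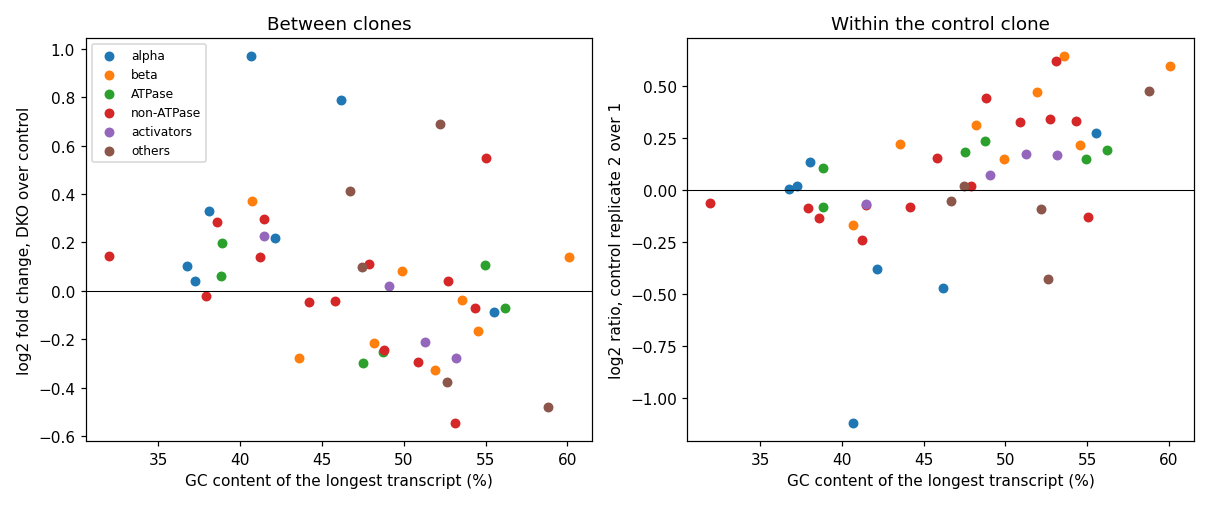
Log2 ratio against the GC content of the longest transcript (percent) for the 44 proteasome genes, coloured by class, between clones (left, DKO over control) and within the control clone (right, replicate 2 over replicate 1). Values fall with GC on the left (r = -0.36) and rise with it on the right (r = 0.52).

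Genes that act with the proteasome did not pass in any of 5 lists: 0 of 59 tested genes rose and 0 fell by edgeR, against 5.37% called over all genes, while 7 had an unadjusted p under 0.05 (4 higher and 3 lower, against 20.2% of all genes). Limma-voom called 0 and DESeq2 called 1, UBQLN4. Among 14 accessory and assembly factors with other symbols, 9 were positive and the median was 0.13. The member with the smallest p was TXNL1, a thioredoxin of the cap, with 65.5 and 47.8 CPM in control and 81.2 and 80.6 CPM in DKO (0.52, SE 0.21, edgeR adjusted p = 0.165). POMP, the chaperone that completes the core, had 90.1 and 114 CPM against 114 and 137 CPM (0.30, SE 0.20). AKIRIN2, which carries proteasomes into the nucleus, was at 0.34 (SE 0.19), and the ubiquitin receptor ADRM1 at -0.14 (SE 0.23).

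The control of proteasome genes by NFE2L1 was described by 14 genes with a median of 0.07, 7 positive and 7 negative. NFE2L1 itself had 170 and 224 CPM in control and 184 and 208 CPM in DKO (-0.0088, SE 0.20, edgeR adjusted p = 0.987). Factors that process or degrade it lay on both sides of 0, and none passed. The protease DDI2, which cleaves it, was at -0.40 (SE 0.20), the glycanase NGLY1 at -0.29 (SE 0.19) and the extracting ATPase VCP at -0.33 (SE 0.25). SYVN1 and SEL1L, the ligase of the ER and its partner, were at 0.40 (SE 0.20) and 0.31 (SE 0.20). The related factor NFE2L2 was at 0.31 (SE 0.19). RRBP1, a ribosome-binding protein of the ER, had the smallest p, with 1115 and 1441 CPM in control and 798 and 868 CPM in DKO (-0.62, SE 0.23, edgeR adjusted p = 0.135).

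Of 12 tested ubiquitin genes, E1 enzymes and shuttle receptors, 6 were positive (median 0.04). UBQLN4, a shuttle receptor, had 109 and 127 CPM in control and 75.8 and 76.8 CPM in DKO (-0.63, SE 0.19, edgeR adjusted p = 0.0708), and DESeq2 called it lower (-0.64, DESeq2 adjusted p = 0.0493). The ubiquitin gene UBB was at -0.29 (SE 0.25). Among 10 cofactors of VCP the median was 0.04, and UFD1 had the smallest p, with 102 and 92.8 CPM in control and 120.3 and 149.6 CPM in DKO (0.47, SE 0.20, edgeR adjusted p = 0.190). Of 14 genes of antigen presentation and interferon response, 9 were tested and 7 were positive (median 0.12). B2M, the light chain of MHC class I, had 128 and 111 CPM in control and 135 and 148 CPM in DKO (0.24, SE 0.19, edgeR adjusted p = 0.514). In HLA-B, HLA-C, ERAP2 and NLRC5 no library exceeded 0.815 CPM.

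Matches to the TTP binding element were sought in the longest 3′ UTR of protein-coding transcripts. That UTR need not be part of the principal transcript. In PSMB2, PSME3 and PSMG4 it had 3723, 2180 and 4226 bases, more than the whole principal transcript (2701, 998 and 838 bases). The 7 letters UAUUUAU occurred in 6 of 44 members (13.6%), against 36.0% of 11930 tested genes with a 3′ UTR, and the members' UTRs were shorter, with a median of 374 against 1407 bases. PSMG1 held 5 matches, 4 of them overlapping in tandem, PSMB2 held 2, and PSMB5, PSMD12, PSME3 and PSMG4 held 1 each. PSMA1 and PSMG2, which rose, held none. The median fold change of the 6 was -0.15, and that of the 38 without a match was 0.07, against 0.04 and -0.03 in all genes. The sites below are shown because PSMG1 had the most matches among the members, with the single sites of PSMD12 and PSME3 for comparison; capitals mark the match, and T stands for U, as GENCODE 29 writes transcripts.
PSMG1, first site: ttttaattcctTATTTATggtggtattat
PSMG1, first of the tandem sites: aatttttatctTATTTATttatttattta
PSMG1, last of the tandem sites: atttatttattTATTTATtttttgaggct
PSMD12: gatatctgtcaTATTTATcctgtgagtca
PSME3: ctatttctcttTATTTATagtgtcgggct
On hg38 the matches of PSMG1 lie on the minus strand at chr21:39175434-39175440, chr21:39175319-39175325 and chr21:39175307-39175313. That of PSMD12 is at chr17:67339532-67339538 (minus strand) and that of PSME3 at chr17:42842612-42842618 (plus strand). The fold changes of PSMD12 (-0.02) and PSME3 (0.02) were near 0, and that of PSMG1 (0.41) did not pass. Those of the other genes with a match, PSMB2 (-0.28), PSMB5 (-0.33) and PSMG4 (-0.38), were negative and did not pass either.

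Promoters were searched for TGACNNNGC, the letters of the antioxidant response element that NFE2L1 and NFE2L2 bind, on both strands. RefSeq windows of GRCh38.p14, from 250 bases before to 50 after the start of transcription, were matched by symbol for 38 of the 44 members. A match was found in 14 of the 38 (36.8%), against 19.5% of 9832 tested genes with a window and 13.3% of all 35116 windows. The median fold change was 0.0083 for the 14 and 0.08 for the other 24. No match to these letters was found in the PSMA1 window. The stretches below show the match of PSMG2, which rose, beside those of a subunit of the alpha ring, the beta ring and the lid; capitals mark the match.
PSMG2: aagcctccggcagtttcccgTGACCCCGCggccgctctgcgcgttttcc
PSMA4: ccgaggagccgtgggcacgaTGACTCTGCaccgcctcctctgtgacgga
PSMB3: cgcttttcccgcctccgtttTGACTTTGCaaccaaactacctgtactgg
PSMD3: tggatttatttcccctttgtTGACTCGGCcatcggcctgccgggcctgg
They lie on the plus strand at chr18:12658679-12658727, chr15:78540640-78540688, chr17:38752617-38752665 and chr17:39980750-39980798, in the order shown. PSMD3 held a second match, not shown. Of these 4 genes only PSMG2 passed, and the fold changes of PSMA4 (0.22), PSMB3 (-0.04) and PSMD3 (0.04) did not.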

How the data were processed

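The authors deposited 1 table of raw read counts per gene and ERCC spike-in for the 4 libraries, with no normalization. Per the submitters' processing notes, STAR 2.5.3a, featureCounts of Subread 1.6.3, DESeq2 and build hg38 were used; the sources used here name no annotation, strand setting or rule for shared reads. ERCC counts did not enter the library sizes. Genes kept by filterByExpr were tested with edgeR 4.0.16 in R 4.3.3 (TMM, quasi-likelihood test, group as the only term, p adjusted over 13359 genes). Tested on simulated data for this comparison (5 draws, 13151 genes), the test recovered 62.8% of changes of 1 log2 unit and 94.2% of changes of 2. The draws varied each gene independently, without the differences between libraries that went with GC. The largest estimate of a member, 0.97 for PSMA2, was near 1 log2 unit. The draws did not cover the smaller changes of the other members. Alternatives used DESeq2 1.42.0, limma 3.58.1 (voom), other scalings, no filter, the replicate number as a block, and fits without 1 library; trends over GC and length were removed as an alternative chosen after seeing the data. Positions, lengths and 3′ UTRs are from GENCODE 29, which matched 40748 of 42169 rows and all 44 members. The members and lists were chosen with earlier results of these data known. Values in every library are given for members past the threshold, the extremes of each class and the active-site subunits, and for the leading gene of each list, except 1 list whose leading gene is not reported here; further members were added after their values were seen. The chi-square per degree of freedom between libraries of a clone was 36.6 in control and 29.7 in DKO, so neither pair was a repeated deposit of 1 library. With 2 libraries against 2, an exact 2-sided permutation p of a single gene cannot go below 0.333.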

Additional observations from a re-analysis of the deposited data

How the results depend on the processing

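The count of 2 members passing depended on the processing. It was 1 with DESeq2 size factors inside edgeR, 0 with spike-in totals, 0 with unscaled gene totals, 3 without a filter, 3 by limma-voom, 2 by DESeq2, and 6 (4 higher, 2 lower) with GC and length trends removed. Over all genes, 718 of 13359 passed (5.37%), against 329 with spike-in totals (2.46%, 22 higher and 307 lower) and 2159 with the trends removed (16.2%). Without a filter 1194 passed, but of 22155 genes (5.39%), so the share was nearly the same. The members' median of 0.04 ranged from -0.02 to 0.05 over the alternatives with all 4 libraries, except -0.67 with spike-in totals, which moved the median of all genes to -0.68. Among genes of the 5 lists, 0 of 59 passed, against 1 by DESeq2. With the trends removed 8 of 59 passed (5 higher, 3 lower), where 16.2% of all genes did. In the fits without 1 library, members passing ranged from 0 to 5, all genes from 218 to 2172 and list genes from 0 to 4, the highest of each without control replicate 1, and the members' median ranged from -0.10 to 0.14. With the replicate number as a block, 10 members passed (6 higher, 4 lower), 18 list genes and 4021 genes in all (30.1%). Deviations of same-numbered libraries correlated at 0.54 over genes, but the labels state no pairing and there are only 2 numbers, so whether same-numbered libraries were made together is not known here. No member that passed in any of these fits passed in the opposite direction in another. Depth limits PSMB8, PSMB9, PSMB11 and PSMA8, which lie at or near 0 counts.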
